A study of Mus musculus with 6 samples.

Results

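The calpain genes of the mouse embryonic kidney, Capn1, Capn2, Capn5, Capn6, Capn7, Capn10, Capn15 and Capns1, make up 8 of the 13965 rows of a gene expression table from 6 libraries of RNA from whole kidneys at embryonic day 16. The mutant libraries (n = 3) carried the Six2-TGC transgene with the genotype miR-17~92 flx/flx, and the control libraries (n = 3) were labelled WT, miR-17~92 flx/+. Six2-TGC drives Cre recombinase from Six2 regulatory sequence in nephron progenitors, a design meant to delete the floxed microRNA cluster in those cells and their descendants and not in the stroma, vessels or ureteric bud. Each of 3 litters gave 1 mutant and 1 control library, and the labels do not say whether a library came from 1 embryo or from several. The labels of the control libraries name no transgene, so what the transgene does and what the deletion does cannot be told apart. The members were selected on measured values: Capn6 was chosen by its lower level in mutant than in control kidneys in these same libraries, and the other calpain genes were added by family. The differences between mutant and control kidneys are therefore given for the members as a description, and the calls that the fit over all rows made among them are counted once, as no evidence about them.

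Calpains are intracellular cysteine proteases, most of them activated by calcium, that cut their substrates at a few sites and so change them instead of degrading them. The classical enzymes each pair a large catalytic subunit, from Capn1 or Capn2, with the small regulatory subunit from Capns1, and both subunits bind calcium through penta-EF-hand domains. The non-classical members Capn5, Capn6, Capn7, Capn10 and Capn15 have other C-terminal domains and are not known to need the small subunit. Capn6 is expressed mainly in embryonic tissues, lacks the catalytic cysteine, and is known for stabilising microtubules in cultured cells.

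The missing cysteine could be read in the coding sequence of the reference annotation. The 27-base windows show GENCODE M21 transcripts on GRCm38, 5′ to 3′ on the coding strand, with the codon that lines up with the cysteine codon of Capn1 and Capn2 in capitals. They are given because the cysteine is the residue with which these proteases cut, and its codon separates Capn6 from the rest.
Capn1, chr19:6013688-6014002, minus strand, across an intron: gcactgggggacTGTtggctcctggct
Capn2, chr1:182492851-182512213, minus strand, across an intron: gccctgggggacTGCtggctgctggct
Capn5, chr7:98151854-98151880, minus strand: caggtgggcaacTGCtggtttgtggct
Capn6, chrX:143810887-143810913, minus strand: agattggggaacAAGgcaatgatctct
Capn7, chr14:31354098-31354124, plus strand: atagtatcagatTGTtcctttgtggca
Capn10, chr1:92938008-92938034, plus strand: ctgctgggagatTGCtggttcctgtgt
Capn15, chr17:25963136-25963263, minus strand, across an intron: ctgctggggaacTGCtggttcctgagt
Capn6 has AAG, a lysine codon, at codon 81, where the other 6 have TGT or TGC, the codons of cysteine. Each window was placed without gaps on 21 codons around the site, of which Capn6 and Capn7 encode the same residue as Capn1 at 6, Capn5 at 10, Capn10 at 11 and Capn15 at 12. The small subunit Capns1 has no protease core and was not lined up.

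The libraries held between 43804667 and 54913325 reads, and all 8 calpain rows passed the filter of at least 1 CPM (reads of a gene per 1000000 reads of the library) in at least 3 libraries, as did 13766 of all rows. The row of the targeted cluster, Mir17hg joined with overlapping microRNA genes, stood at 53.6, 39.8 and 44.6 CPM in mutant kidneys of litters 1, 2 and 3 and at 34.1, 36.4 and 23.0 CPM in control kidneys. It was thus higher in the mutant in each litter, without overlap of the groups, with a log2 difference of 0.57 (SE 0.17). Its limma adjusted p was 0.222 with genotype alone and 0.0292 paired by litter. The row does not show which of its reads came from the floxed bases, so it does not check the labels. Kidney markers of the lists used here were measured in every library, among them Six2, the proximal tubule receptor gene Lrp2 and the podocyte gene Nphs1. Control library 1 stood apart in 1 respect that touches an X-linked gene such as Capn6. It held Xist, the RNA made by the inactive X chromosome of females, at 624 CPM together with RNA of Y-linked genes, whereas Xist lay at or below 0.255 CPM in the other 5 libraries.

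Capn6 transcripts were less abundant in every mutant kidney. Mutant kidneys of litters 1, 2 and 3 held 143, 133 and 132 CPM of Capn6, against 289, 292 and 279 CPM in the control kidneys of the same litters. The groups did not overlap, and the 3 libraries of each group lay close together. The mean was 136 ± 6.51 CPM in mutant and 286 ± 6.89 CPM in control kidneys (SD, n = 3 each), 2.11-fold lower in mutant kidneys. On the log2(CPM + 0.5) scale the difference was -1.07 (SE 0.07), and within litters 1, 2 and 3 it was -1.01, -1.13 and -1.08. These values rest on 6158 to 7277 reads per mutant library and 12668 to 13783 per control library, so that counting error is small beside the spread between libraries. In whole kidneys, fewer cells that express the gene and less RNA per cell cannot be told apart. Control library 1, with its Xist, lay between the other control libraries in Capn6, and the log2 difference was -1.07 without it.

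**Figure D1:**
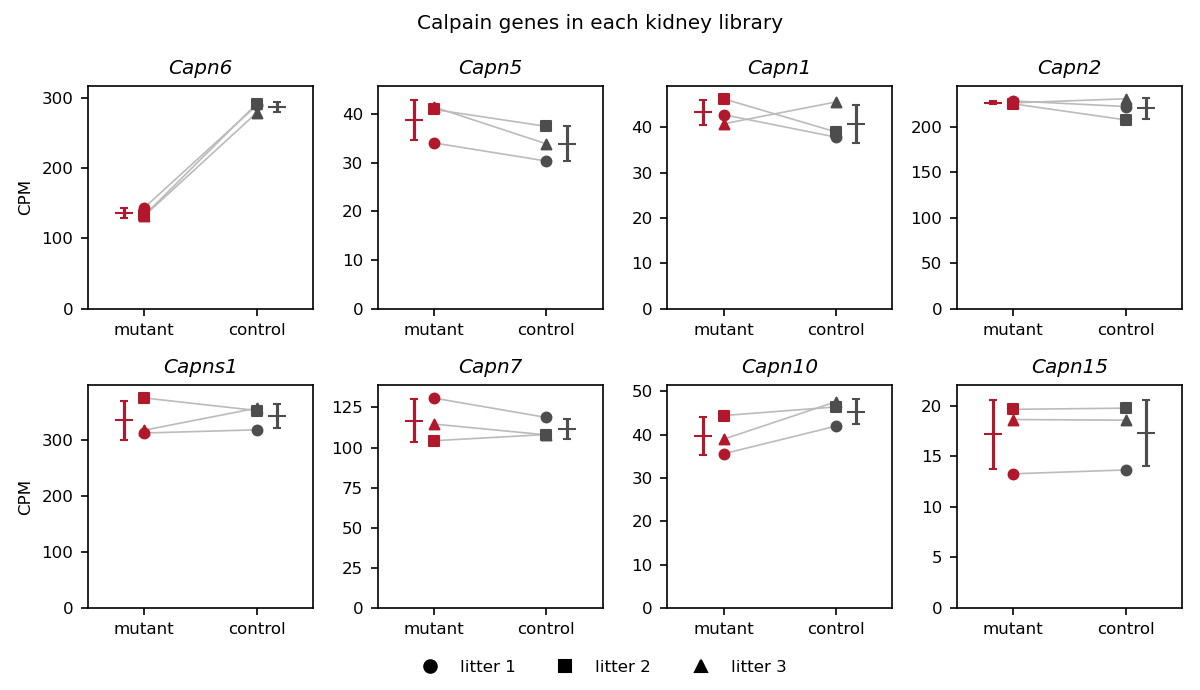
CPM of the 8 calpain genes in each library, with mutant kidneys on the left and control kidneys on the right of each panel; symbols mark the litter, grey lines join the libraries of a litter, and bars give the mean and SD of 3 libraries. Capn6 separates the groups (132 to 143 CPM in mutant, 279 to 292 CPM in control kidneys), and the ranges of the other 7 genes overlap.

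The genes of the classical calpains lay at similar levels in mutant and control kidneys. Capn2, the large subunit of m-calpain, was measured at 228, 225 and 226 CPM in mutant kidneys of litters 1, 2 and 3 and at 222, 207 and 231 CPM in control kidneys. The mutant values lay inside the control range, and the log2 difference was 0.04 (SE 0.07). Capn1, the large subunit of µ-calpain, was measured at 42.8, 46.3 and 40.8 CPM in mutant kidneys and at 37.8, 39.0 and 45.6 CPM in control kidneys. It was higher in the mutant in litters 1 and 2 and lower in litter 3, with a log2 difference of 0.09 (SE 0.11). Capns1, the small subunit that both enzymes need, was measured at 313, 376 and 318 CPM in mutant kidneys and at 319, 353 and 358 CPM in control kidneys. Its ranges overlapped as well, with a log2 difference of -0.04 (SE 0.09). Per kb of transcript, Capn1 stood at 0.202 ± 0.0138 of the level of Capn2 in mutant and at 0.195 ± 0.0146 in control kidneys (SD, n = 3 each). The balance between the large subunits thus differed by less than its spread between libraries.

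The non-classical members with a catalytic cysteine showed small differences, of which only those of Capn5 and Capn10 kept 1 sign in all 3 litters. Capn5, which has the same domain layout as Capn6 and is known from inherited retinal disease in humans, was measured at 34.1, 41.0 and 41.5 CPM in mutant kidneys and at 30.4, 37.5 and 33.9 CPM in control kidneys. Each mutant library was above its littermate control, but the groups overlapped. The log2 difference was 0.19 (SE 0.12 with genotype alone and 0.06 paired by litter). Capn10, a calpain studied for its link to diabetes in human genetics, was measured at 35.6, 44.4 and 39.0 CPM in mutant kidneys and at 42.0, 46.4 and 47.6 CPM in control kidneys. It was below its littermate control in each litter, with overlapping groups. The log2 difference was -0.19 (SE 0.11 with genotype alone and 0.06 paired by litter). Capn7, a calpain that binds ESCRT-III proteins of membrane remodelling, was measured at 131, 104 and 115 CPM in mutant kidneys and at 119, 108 and 108 CPM in control kidneys. Its log2 difference was 0.06 (SE 0.10), positive in 2 litters and negative in 1. Capn15, the relative of the Drosophila small optic lobes gene, was measured at 13.3, 19.6 and 18.6 CPM in mutant kidneys and at 13.7, 19.8 and 18.6 CPM in control kidneys. The values of littermates nearly coincided, and the log2 difference was -0.01 (SE 0.18 with genotype alone and 0.07 paired by litter).

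Read against all rows, 1 of the 8 calpain genes, Capn6, was called by limma at a Benjamini-Hochberg adjusted p below 0.05, with genotype alone and likewise with litter in the model. Of all rows tested, 0.559% were called with genotype alone and 11.4% when paired by litter. Capn6 was also the 1 member whose mutant and control libraries did not overlap, which held for 17.3% of all rows. Since this contrast chose the members, nothing is read from these counts. The log2 differences of the other 7 members lay between -0.19 and 0.19, with SEs of 0.07 to 0.18 with genotype alone. Paired by litter, their SEs were 0.04 to 0.08. Over all 8 the median was 0.01, which was also the median of all rows tested.

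**Figure D2:**
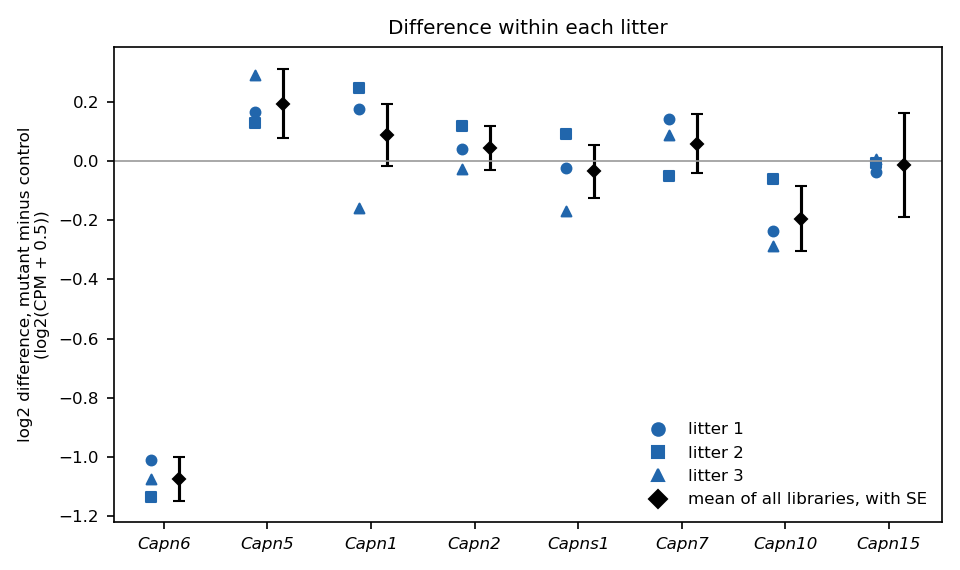
Log2 difference, mutant minus control, for each calpain gene, within each litter (blue symbols) and as the mean over all libraries with its SE (black diamonds), on log2(CPM + 0.5). Capn6 lies between -1.13 and -1.01 in the 3 litters, and the 7 other genes lie near 0.

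Per length of transcript, the small subunit gene was the most abundant of the 8 calpain genes and Capn15 the least. Dividing CPM by the length of the longest annotated coding transcript gave 210 ± 21.8 CPM per kb for Capns1 in mutant kidneys and 215 ± 13.3 in control kidneys (SD, n = 3 each). Of 13168 tested rows with a protein-coding gene, 98.0% lay below it in either group. In control kidneys Capn6 came next at 80.4 ± 1.93 CPM per kb, above Capn2 at 68.2 ± 3.64, and the 3 values of each did not overlap. In mutant kidneys the order of this pair was turned round, with Capn2 at 70.2 ± 0.502 and Capn6 at 38.2 ± 1.83 CPM per kb. The ratio of Capn6 to Capn2 per kb was 0.544 ± 0.0224 in mutant and 1.18 ± 0.0895 in control kidneys. Capn7 followed at 32.0 ± 3.67 CPM per kb in mutant and 30.6 ± 1.70 in control kidneys. In mutant kidneys the lowest Capn6 value, 37.1 CPM per kb, stood just above the highest Capn7 value, 35.9. Capn10 (13.7 ± 1.54 in mutant and 15.6 ± 1.02 in control kidneys) and Capn1 (14.1 ± 0.912 in mutant and 13.3 ± 1.37 in control kidneys) overlapped in both groups and could not be ordered. Capn5 was lower at 8.64 ± 0.918 CPM per kb in mutant and 7.54 ± 0.792 in control kidneys, and Capn15 lowest at 3.29 ± 0.657 in mutant and 3.32 ± 0.622 in control kidneys.

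**Figure D3:**
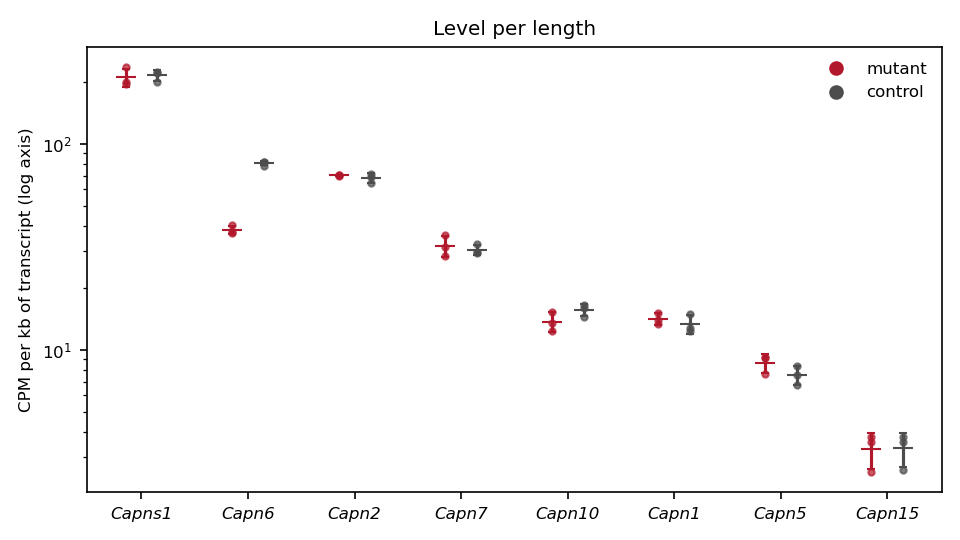
CPM per kb of transcript for the 8 calpain genes on a log axis, ordered by the control mean; points are libraries and bars the mean and SD of 3 libraries, mutant left and control right. Capn6 is second to Capns1 in control kidneys at 80.4 CPM per kb and lies below Capn2 in mutant kidneys at 38.2.

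The total of the family apart from Capn6 differed by less than its spread, at 352 ± 21.5 CPM per kb in mutant and 353 ± 15.2 in control kidneys summed over the 7 genes. Capn6 made up 9.81 ± 0.805% of the summed level of the 8 genes in mutant and 18.6 ± 0.907% in control kidneys (SD, n = 3 each). Capns1, which has no protease core, made up 53.7 ± 2.74% in mutant and 49.5 ± 1.54% in control kidneys. The total apart from Capn6 thus rests largely on Capns1 and says little about the members at low levels. Capn6 RNA, which encodes no catalytic cysteine, stood at 0.184 ± 0.0239 of the level of Capns1 per kb in mutant and at 0.376 ± 0.0291 in control kidneys.

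Several of the other calpains, like many of all rows, had their lowest or highest value in litter 1 in both groups. Litter 1 had the lowest value in both the mutant and the control group for Capn5, Capn10, Capn15 and Capns1, and the highest in both for Capn7. This is 4 of 8 members lowest and 1 of 8 highest in litter 1, and among all rows tested 26.9% were lowest and 26.6% highest there in both groups. Capn15 was 1 of these, with 13.3 CPM in the mutant and 13.7 CPM in the control library of litter 1 and 18.6 to 19.8 CPM in the 4 libraries of litters 2 and 3. Its coefficient of variation between libraries was 20.0% in mutant and 18.7% in control kidneys, the highest of the 8 genes. Capn6 varied by 4.78% in mutant and 2.40% in control kidneys, and Capn2 by 0.715% in mutant and 5.34% in control kidneys.

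The rows whose course over the 6 libraries was most like that of Capn6 were, as the measure of likeness requires, also lower in mutant kidneys. Likeness was the root mean square distance between log2(CPM + 0.5) profiles centred on the mean of the 6 libraries, over 13695 rows with a mean of at least 1 CPM. The nearest row was Clrn1, the gene of the tetraspan-like protein clarin 1 of sensory cells, at a distance of 0.08, followed by R3hdml (0.11), 2610028E06Rik (0.12), Phf19 (0.13), Ajap1 (0.14) and Actn3 (0.15). The median distance of all rows was 0.56. Phf19, which encodes an accessory subunit of the Polycomb repressive complex that methylates histone H3, stood at 17.1, 19.7 and 17.2 CPM in mutant kidneys of litters 1, 2 and 3 and at 32.7, 39.3 and 34.3 CPM in control kidneys. Actn3, the alpha-actinin of fast muscle fibres, stood at 6.09, 6.96 and 5.23 CPM in mutant and at 11.5, 13.7 and 13.8 CPM in control kidneys. The other 4 rows had means between 1.75 and 8.23 CPM in mutant and between 3.99 and 17.3 CPM in control kidneys. No calpain was among the 6, nor any gene of the marker lists used here.

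**Figure D4:**
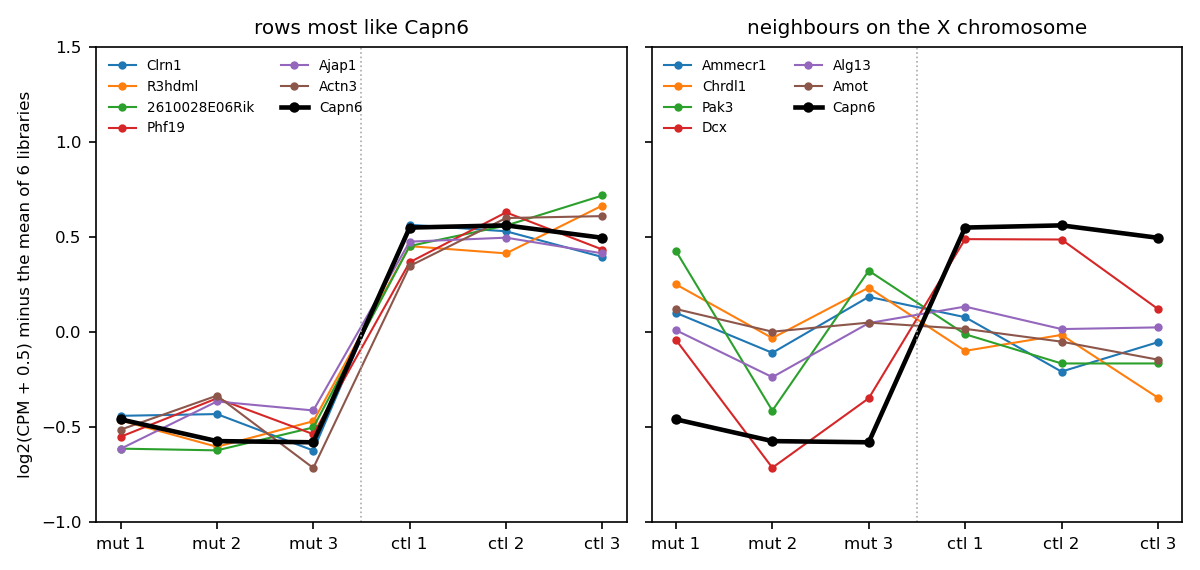
Log2(CPM + 0.5) of each library minus the mean of the 6 libraries, for Capn6 (black) with the 6 rows most like it (left) and with the 3 tested rows nearest to it on each side on the X chromosome (right); mutant libraries are left and control libraries right of the dotted line. On the right, Dcx alone lies below its mean in all mutant libraries and above it in all control libraries, as Capn6 does.

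Next to Capn6 on the X chromosome lies Dcx, the gene of the microtubule-binding protein doublecortin, and it was also lower in each mutant kidney. Dcx stood at 14.1, 8.69 and 11.3 CPM in mutant kidneys of litters 1, 2 and 3, against 20.6, 20.6 and 15.9 CPM in control kidneys. The groups did not overlap. The log2 difference was -0.73 (SE 0.18), with a limma adjusted p of 0.111 with genotype alone and of 0.0159 paired by litter, and it was called in 4 of 15 alternatives, with adjusted p between 0.00797 and 0.376. On the other side of Capn6 lies Pak3, a serine/threonine kinase gene, at 5.22, 2.70 and 4.82 CPM in mutant and 3.72, 3.29 and 3.29 CPM in control kidneys, which overlapped. The 5 neighbours other than Dcx (Ammecr1, Chrdl1, Pak3, Alg13 and Amot) had log2 differences from -0.12 for Alg13 to 0.30 for Chrdl1. Limma called 0 of the 5 with genotype alone or paired by litter, where 0.559% and 11.4% of all rows were called.

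Among genes around the classical calpains, Egfr, the epidermal growth factor receptor, was the 1 called by limma with genotype alone, and it was higher in mutant kidneys. The list held calpastatin (Cast), the specific inhibitor of Capn1 and Capn2, and 19 reported substrates of calpains, and all 20 were measured. With genotype alone limma called 1 higher and 0 lower, and paired by litter it called 6 higher and 0 lower, where 0.559% and 11.4% of all rows were called, 1091 of the 1574 paired calls being higher. Egfr stood at 29.1, 26.6 and 26.6 CPM in mutant kidneys of litters 1, 2 and 3, against 16.9, 17.1 and 16.9 CPM in control kidneys. Its log2 difference was 0.68 (SE 0.10), with an adjusted p of 0.0152 and of 0.00215 paired by litter. The call was lost with control library 2 or 3 or mutant library 2 or 3 left out, where the adjusted p reached 0.101, and held without control library 1 or mutant library 1. The other 5 genes called when paired were the spectrin gene Sptan1 (log2 difference 0.14, adjusted p = 0.0369), the talin gene Tln1 (0.21, 0.0115), the filamin gene Flna (0.25, 0.00451), the vinculin gene Vcl (0.30, 0.0242) and the kinase gene Prkca (0.25, 0.0307). These paired calls of Sptan1, Tln1, Flna, Vcl and Prkca were lost once the trend of each library on transcript length and GC content was removed, with adjusted p from 0.116 for Vcl to 0.559 for Sptan1. The microtubule-associated protein gene Map2, whose difference was next in size after those of Egfr and Vcl, stood at 30.7, 24.7 and 27.4 CPM in mutant and 24.5, 22.6 and 21.8 CPM in control kidneys and was not called by limma (adjusted p = 0.433, 0.0587 paired). Cast stood at 89.9, 71.2 and 90.3 CPM in mutant and 82.9, 70.8 and 77.2 CPM in control kidneys, with overlapping groups and a log2 difference of 0.12 (SE 0.11). The median log2 difference of the list was 0.08, and that of all rows was 0.01.

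The other genes with penta-EF-hand domains, Pdcd6, Sri, Gca and Pef1, gave 0 calls of 4 by limma in either fit. Of all rows 0.559% were called with genotype alone and 11.4% when paired by litter. The largest log2 difference was that of Gca, the grancalcin gene (0.33, SE 0.14, adjusted p = 0.384, 0.0642 paired). Of Pef1 and Pdcd6 the log2 differences were -0.10 and -0.09. Genes of the ESCRT machinery, among them Ist1, whose product binds Capn7, gave 0 calls of 6 measured, beside the same shares of all rows. With so few genes, 0 calls at these shares say little about either list. All 6 had a small negative difference, from -0.09 for Chmp4b to -0.01 for Vps4b. Of these, Chmp2a and Ist1 had log2 differences of -0.08 and -0.06.

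**Figure D5:**
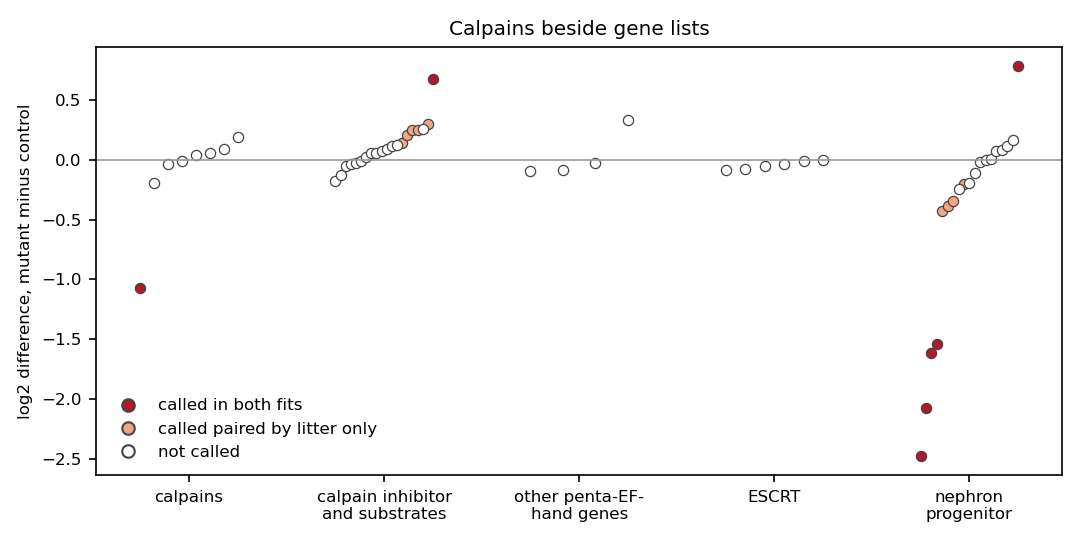
Log2 difference, mutant minus control, of the 8 calpain genes and of the measured genes of 4 lists, each point 1 gene; dark red points were called by limma with genotype alone and paired by litter, light red points when paired only, and white points in neither fit. Capn6 lies at -1.07, inside the range of the nephron progenitor list (-2.47 to 0.78), and the genes of the other 3 lists lie between -0.18 and 0.68.

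Some genes of nephron progenitors, the cells in which Six2-TGC drives Cre, were lower in the same kidneys. Of 19 measured genes other than Capn6, limma called 4 lower (Cited1, Meox1, Meox2 and Traf1) and 1 higher (Fgf20) with genotype alone, and 8 lower and 1 higher paired by litter, beside the same 0.559% and 11.4% of all rows. The list was drawn up with earlier results of these libraries known, so its direction is not independent evidence. The 4 genes called lower had log2 differences of -2.07 for the co-activator Cited1, -2.47 and -1.54 for the homeobox genes Meox2 and Meox1, and -1.61 for the adaptor Traf1. The 4 called lower when paired only were Six2, Eya1, Wt1 and Spock2, with log2 differences from -0.43 to -0.20. Osr1, Sall1, Itga8, Gdnf, Hoxc11 and Hoxd11 (in a row joined with Hoxd10) were called in neither fit, with log2 differences from 0.00 to 0.16. Crym, Pax2, Hoxa11 and Dpf3 were likewise not called, at -0.25 to -0.02. Of the 19 differences, 7 were positive and 12 negative. Fgf20, the growth factor of the progenitors, was called at an adjusted p of 0.0465, and with any 1 of the 6 libraries left out it was not called, with adjusted p from 0.0571 to 0.208. The summed level of the 19 genes lay between 942 and 1016 CPM in mutant and between 1102 and 1169 CPM in control kidneys.

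Summed markers of several other kidney cells were higher in mutant kidneys. The stromal sum of 8 measured genes lay between 1627 and 1828 CPM in mutant and between 1346 and 1542 CPM in control kidneys. The proximal tubule sum of 6 genes lay between 788 and 961 CPM in mutant and 640 and 734 CPM in control kidneys, and those of the ureteric bud (6 genes), early nephron (5 genes) and endothelium (5 genes) were also above the control range. Within the ureteric bud list Wnt11 ran the other way, at 47.4 to 53.1 CPM in mutant and 55.5 to 58.2 CPM in control kidneys. Aqp2 of the same list had a log2 difference of -0.20, with overlapping groups. Lhx1 (early nephron), Emcn (endothelium) and Slc3a1 (proximal tubule) stood at -0.10, -0.02 and -0.04, and the other genes of the lists with a higher sum had positive differences. Col1a1, the most abundant gene of the stromal list, overlapped between groups, at 818 to 934 CPM in mutant and 631 to 824 CPM in control kidneys. The podocyte sum of 5 genes and the leukocyte sum of 5 genes overlapped between groups, at 404 to 458 and 72.2 to 99.6 CPM in mutant and at 407 to 508 and 70.9 to 82.8 CPM in control kidneys. The part of cell composition in the Capn6 difference was not tested. Capn6 is also expressed in embryonic muscle. The 2 measured genes of the skeletal muscle list, Mylpf and Tnnt3, summed to 5.37 to 7.61 CPM in mutant and 5.64 to 7.23 CPM in control kidneys. The other 6 genes of that list had no row. The sum hides opposite signs. Mylpf, at a low level, was lower in each mutant kidney without overlap, at 0.836 to 0.911 against 1.552 to 2.163 CPM. Its log2 difference was -0.73 (limma adjusted p = 0.112, 0.0304 paired by litter). Tnnt3, the more abundant, overlapped between groups, with a log2 difference of 0.26. The cartilage sum of 4 measured genes lay at 62.5 to 83.0 CPM in mutant and 66.5 to 100.5 CPM in control kidneys, and its genes differed in sign. Col2a1, the most abundant, had a log2 difference of -0.38 with overlapping groups. Cnmd stood at 2.96, 2.82 and 4.24 CPM in mutant kidneys of litters 1, 2 and 3 and at 0.365, 1.18 and 0.627 CPM in control kidneys. Limma called Cnmd higher with genotype alone (adjusted p = 0.0159) and paired by litter (0.00461). The 4 Y-linked genes Ddx3y, Eif2s3y, Kdm5d and Uty summed to 378, 263 and 308 CPM in mutant kidneys of litters 1, 2 and 3 and to 186, 284 and 286 CPM in control kidneys. Control library 1 had the lowest of these sums and the only high Xist, and was not low or high in Capn6.

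Of each microRNA hairpin of the targeted cluster 1 mature arm was taken, and these arms fall into 4 seed families. Capn6 holds no 7-base match to any of the 4 in the annotated 3′ UTR of its longest coding transcript. The sequences of these arms (RefSeq, GRCm38.p6, chr14:115043684-115044496, plus strand) are given with the seed, bases 2 to 8, in capitals, because seed matches were searched in the 3′ UTRs of the calpain genes. The other arms and shorter matches were not searched.
miR-17-5p: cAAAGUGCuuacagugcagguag
miR-20a-5p: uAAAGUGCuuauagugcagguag
miR-18a-5p: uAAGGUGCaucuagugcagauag
miR-19a-3p: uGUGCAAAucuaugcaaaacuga
miR-19b-3p: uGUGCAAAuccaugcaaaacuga
miR-92a-3p: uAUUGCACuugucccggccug
miR-17-5p and miR-20a-5p share a seed, as do miR-19a-3p and miR-19b-3p. The 7-base matches searched on the transcript strand were GCACTTT for miR-17 and miR-20a, GCACCTT for miR-18a, TTTGCAC for miR-19 and GTGCAAT for miR-92a, and the last 4 bases of TTTGCAC are the first 4 of GCACTTT and of GCACCTT. Of 13068 tested rows with an annotated 3′ UTR, 33.9% held at least 1 of these matches, as did 36.9% of the 2157 whose 3′ UTR was of a length similar to the 1413 bases of Capn6. Of the 8 calpain genes, Capn5 and Capn15 held 1 match each and the other 6 held 0. The match of Capn5, to miR-19, and that of Capn15, to miR-17 and miR-20a, are shown on GRCm38 with the match in capitals.
Capn5, chr7:98121714-98121742, minus strand: ttcatttatcgTTTGCACccaggaggcct
Capn15, chr17:25959482-25959510, minus strand: cccccctacatGCACTTTatgagggagac
A match to miR-19 was held by 18.9% of 3′ UTRs similar in length, by the same limits, to that of Capn5 (2314 bases). A match to miR-17 and miR-20a was held by 11.8% of those similar in length to that of Capn15 (1186 bases). The log2 differences of these genes were 0.19 and -0.01, as given above. Of the 6 members with no match, Capn6, chosen for its difference, stood at -1.07. The others ran from -0.19 to 0.09. A match describes letters in the annotated transcript and does not show binding.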

How the data were processed

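RNA of 6 whole-kidney libraries was measured, per the labels with the Illumina TruSeq RNA kit, from Trizol extracts. The deposited values are the authors' CPM, reads of a row per 1000000 reads of its library. TopHat2 2.0.9, Picard, SAMtools and build NCBIM37 are named in the submitters' processing notes, and the counting program, annotation and strand setting are not given in the sources used here. Every value was a whole number of reads within 2.69e-05 reads, and library totals were taken from that step. More than 1 gene identifier was joined in 526 rows, none of them of the 8 calpain genes. Symbols came from GENCODE M21 (GRCm38) by Ensembl identifier for 13695 rows.

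Differences were fitted with limma 3.58.1 in R 4.3.3, with the mean-variance trend, on log2(CPM + 0.5) with genotype alone. A row entered the fit if 3 or more libraries reached 1 CPM, which left 13766. Benjamini-Hochberg adjustment ran over all of them, with 0.05 as the threshold for a call. The fit was checked on simulated data. Litter, which the labels give, was a block in an alternative fit: deviations from group means correlated at 0.619, 0.446 and 0.312 within litters 1, 2 and 3, and at -0.514 to 0.172 between litters. Library pairs of a group differed beyond read sampling, the chi-square of their reads divided by its degrees of freedom being 21.6 to 51.1. Other alternatives changed the pseudocount, the filter and the scaling, corrected for transcript length and GC content, or left out 1 library.

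The members and lists were chosen with earlier results of these data known. Beside the members, the text names the list genes called or among the 3 with the largest difference of their list, the 6 rows most like Capn6, its 3 neighbours on each side, Xist and the Y-linked genes. The progenitor genes called in neither fit were named after their values were seen, as were Cast, Vps4b and the list genes called when paired only. So were the kidney, muscle and cartilage marker genes given with their own values. Transcript length was that of the longest annotated coding transcript. The separation of libraries as embryos or pools is not stated, so p values measure the spread between these libraries. A comparison of protein sequences was not made, and 1 gene list is not reported here.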

Additional observations from a re-analysis of the deposited data

How the results depend on the processing

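Over the 15 alternatives the log2 difference of Capn6 stayed between -1.11 and -1.05. The 4 of the other 7 members that kept their sign in all 15 were Capn1, Capn2, Capn5 and Capn10, and Capn7 kept it in 14, Capn15 in 12 and Capns1 in 11. The difference of Capn2 ran from 0.001 to 0.077, so its sign says little. Those of Capn1, Capn5 and Capn10 ran from 0.04 to 0.17, from 0.11 to 0.28 and from -0.28 to -0.12. Paired by litter, with the replicate block, 1574 rows were called, 6 genes of the calpain inhibitor and substrate list and 9 of the nephron progenitor list. With the length and GC correction 190 rows were called, and with the block as well 790 rows and 10 nephron progenitor genes. The block changed no call of a calpain gene. With 1 library left out in turn the rows called went from 22 to 100 (27 without control library 2, 44 without control library 3, 34 without mutant library 2 and 22 without mutant library 3), and the calpain inhibitor and substrate list from 0 to 1. The cause of these changes was not tested. The planned tests on read counts were not run, because too few low values were present to check the recovered reads by the standard set for them. Groups of 3 libraries limit the precision: among the 7 other members the SE with genotype alone reached 0.18, for Capn15. Paired by litter the SE of Capn15 was 0.07, and the largest among the 7 was 0.08, for Capn1.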

Other observations

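Beside the 8 genes, 2 further rows hold a calpain. Capn11, a calpain known mainly from testis, had 4, 202 and 234 reads in mutant kidneys of litters 1, 2 and 3 and 5, 141 and 40 reads in control kidneys. It was thus nearly silent in both libraries of litter 1 and at 0.809 to 5.01 CPM in the 4 libraries of litters 2 and 3, and its log2 difference between genotypes was 0.72 (SE 0.80). The row that joins Capn3, the muscle calpain, with the overlapping gene Ganc stood at 31.9, 24.3 and 25.7 CPM in mutant kidneys and at 27.8, 22.2 and 23.6 CPM in control kidneys, and its reads cannot be assigned to either gene.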
